A study of Mus musculus with 4 samples.

Results

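The genes described here are 9 transcription factors that define monocytes and macrophages, Maf, Spi1, Cebpa, Cebpb, Irf8, Klf2, Klf4, Runx3 and Zeb2, which were picked by name and found by their Ensembl identifiers among the 12596 genes measured. Their unique molecular identifier (UMI) counts, each UMI standing for 1 captured mRNA molecule, were read in single myeloid cells of the mouse colon. The mice were male wild-type C57/Bl6N animals, and for about 6 months, on 5 days a week, they received by gavage either 12 µg diesel exhaust particles (DEP) in 200 µL phosphate-buffered saline (PBS), as mice 14 and 15 did, or 200 µL PBS alone, as mice 2 and 3 did. Cells of the lamina propria, the connective tissue under the gut epithelium, had been flow-sorted as Cd11b+ and either Ly6c2+ or Cd64+, and each mouse filled 1 well of a 3′ single-cell RNA-seq run. With 2 mice a group and 1 well a mouse, a difference between mice and a difference between wells cannot be told apart, and the sort decided which cells could be seen at all.

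Macrophages of the colon are replaced all through life from blood monocytes, which enter the lamina propria carrying Ly6c2 and Ccr2, lose them stepwise, and gain complement C1q, the mannose receptor and tolerance to microbes. PU.1, the product of Spi1, opens chromatin throughout the myeloid lineage, and the other factors act with it: the C/EBP proteins at myeloid enhancers, IRF8 in the choice between monocytes and granulocytes, c-Maf in mature macrophages, the Krüppel-like factors in quiescence and in the restraint of inflammation, RUNX3 in leukocyte residence and response to TGF-beta, and ZEB2 as a repressor that keeps macrophages to the identity of their tissue. The share of a cell's UMIs that came from C1qa, C1qb and C1qc was therefore used as a ruler, with cells under 0.3%, from 0.3 to 1% and above 1% called C1q-low, C1q-mid and C1q-high.

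Of 943 cells, 903 were kept, after 40 with at least 3 markers of B or plasma cells, T cells, NK or innate lymphoid cells, epithelium or stroma had been set apart. Mice 14, 15, 2 and 3 gave 179, 316, 193 and 215 kept cells, median depths between 2692 and 4661 UMIs a cell, and 710218 to 1246996 UMIs in sum. The C1q-low, C1q-mid and C1q-high cells numbered 143, 59 and 701, with median depths of 3152, 2631 and 4132 UMIs. They are ranges of a score and not cell types: 3 cells lay within 10% of the lower limit and 41 within 10% of the upper one. Ly6c2 was seen in 57.3% of C1q-low, 13.6% of C1q-mid and 3.99% of C1q-high cells, and all 6 of the 8 monocyte markers that could be tested fell from the C1q-low to the C1q-high cells, Ly6c2 being a gene of the sorting gate, while of the 11 macrophage markers 7 rose, among them Mrc1, Cd163, Mertk, Adgre1 and Cx3cr1, and 2 fell. Lyz2, which monocytes also make, fell by 1.24 on the log2 scale, and Tyrobp fell by 0.45. The summed macrophage list, most of it Lyz2, was higher in C1q-low cells, at 44070 to 58890 CPM, than in C1q-high cells, at 20610 to 22820 CPM (CPM for such lists being UMIs scaled to the same total in each library). CPM of single genes below was scaled by the trimmed mean factors of each comparison, unless stated otherwise. Jchain, a plasma cell gene, rose by 1.80 as well, and the summed B and plasma cell markers stood at 182 to 223 CPM in C1q-high and 32.8 to 93.4 in C1q-low cells of the 4 mice. Over all kept cells of a mouse the NK and innate lymphoid markers summed to 34.9 to 52.1 CPM. Of these, Gata3 was seen in 9.52% and Klrk1 in 4.87% of cells, and Ncr1 was at 0. The epithelial markers summed to 6.10 to 13.6 CPM, with Epcam at 0. Their part in the values below was not tested. A single cell barcode occurred in more than 1 mouse. C1q-low cells made up 16.8 and 21.5% of the cells of the DEP mice and 9.85 and 12.1% of those of the PBS mice, a difference of 8.17 points (exact permutation test over mice, two-sided p = 0.333, the smallest that 6 arrangements allow).

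Summed over all kept cells of a mouse, the 9 factors spread over more than a 10-fold range of CPM. Because each molecule was counted once at its 3′ end, these levels are not corrected for transcript length and rank captured molecules only. Spi1 was the most frequent, at 481 to 546 CPM, and did not overlap Irf8, at 352 to 458 CPM. Irf8 overlapped Zeb2, at 299 to 359 CPM. Klf2 lay below them at 146 to 242 CPM and overlapped Klf4, at 122 to 189 CPM. Klf4 overlapped Runx3 at 84.6 to 136 CPM, and Runx3 overlapped Maf at 78.3 to 116 CPM. Cebpa stood at 45.2 to 85.2 CPM and overlapped Maf, whereas Cebpb was the rarest at 31.1 to 41.3 CPM and did not overlap Cebpa. Over the kept cells Cebpb gave 146 UMIs in all and Spi1 2000, so that the precision differs widely between members. No few cells carried a member, the 5 richest cells holding between 3.45 and 9.80% of its UMIs.

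**Figure D1:**
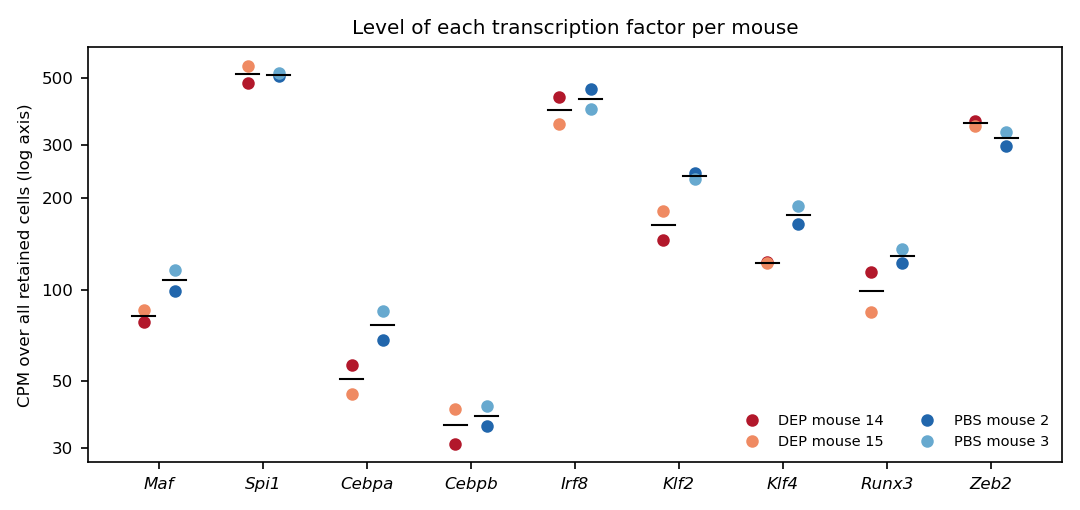
Level of each factor over all kept cells of a mouse, in CPM on a log axis, with 1 point a mouse, DEP mice in red shades, PBS mice in blue shades, and a black line at the mean of each group. Klf2, Klf4, Cebpa, Maf and Runx3 sit lower in both DEP mice than in both PBS mice, Zeb2 sits higher, and Spi1, Irf8 and Cebpb overlap.

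Along the C1q ruler, 4 of the 9 factors rose and 1 fell from C1q-low to C1q-high cells. Maf and Cebpa were close to 0 in C1q-low cells and rose about as steeply as each other, Irf8 and Runx3 rose from a level already present, and Cebpb fell. Spi1, Zeb2, Klf2 and Klf4 did not pass the test. Among all 5545 genes tested, 11.1% rose and 7.48% fell by the same rule, and the median log2 change of the members, 0.08, lay near that of all genes, 0.12. The fit held the UMI sums of each C1q range in each mouse, 12 in all, with the mouse as a block, and used edgeR's quasi-likelihood test with Benjamini-Hochberg adjustment at 0.05. The C1q genes themselves were not tested.

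Maf encodes c-Maf, a basic leucine zipper factor that drives Il10 and keeps macrophages out of the cell cycle. It lies at chr8:115682942-115707794 on the minus strand (GRCm38). In C1q-low cells it stood at 9.84, 15.4, 0 and 32.5 CPM in mice 14, 15, 2 and 3, from 1, 3, 0 and 3 UMIs, and in C1q-high cells at 91.2, 117, 120 and 138 CPM. Each mouse had more Maf in its C1q-high cells, and the lowest C1q-high value was above the highest C1q-low value. The log2 difference was 2.84 ± 0.44 (SE; adjusted p = 2.71e-09 by edgeR's quasi-likelihood test), and because the low sums hold 3 UMIs or fewer its size rests on very few molecules. C1q-mid cells were already at 202, 65.5, 144 and 192 CPM, a rise of 3.16 ± 0.57 over C1q-low cells (edgeR adjusted p = 2.17e-06), and C1q-mid and C1q-high cells did not differ past the threshold (log2 difference −0.32 ± 0.34, edgeR adjusted p = 0.798).

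Cebpa and Cebpb encode the sister factors C/EBP-alpha and C/EBP-beta, which recognise the same DNA element. C/EBP-alpha is needed for granulocyte and monocyte progenitors, and C/EBP-beta is induced by inflammation and needed for Ly6c2-negative monocytes. They lie at chr7:35119293-35121928 and chr2:167688915-167690418, both on the plus strand. Being single-exon genes that moved in opposite directions from C1q-low to C1q-high cells, they are shown here by the 250 bases before their start sites (RefSeq, GRCm38.p6, chr7:35119043-35119292 and chr2:167688665-167688914, plus strand, 5′ to 3′). Capitals mark CACCC or its reverse complement GGGTG, a box that Krüppel-like factors can bind.
Cebpa: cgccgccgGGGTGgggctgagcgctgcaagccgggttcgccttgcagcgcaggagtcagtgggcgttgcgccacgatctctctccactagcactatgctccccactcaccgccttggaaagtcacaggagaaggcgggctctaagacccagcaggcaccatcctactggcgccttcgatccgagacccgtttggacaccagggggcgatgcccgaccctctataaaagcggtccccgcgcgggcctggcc
Cebpb: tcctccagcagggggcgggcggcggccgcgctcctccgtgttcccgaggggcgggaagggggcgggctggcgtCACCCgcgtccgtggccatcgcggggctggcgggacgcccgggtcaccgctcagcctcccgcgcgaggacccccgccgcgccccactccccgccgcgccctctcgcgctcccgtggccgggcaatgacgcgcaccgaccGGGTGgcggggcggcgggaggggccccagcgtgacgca
The window of Cebpa held 1 such match and that of Cebpb 2. A match is common, since 52.0% of 32851 mouse promoter windows of this length hold one, and it describes letters and not a bound site. Of the other motifs searched on both strands, GAGGAA for PU.1 (in 23.3% of all windows), TTGCNNAA for C/EBP (9.56%), TGTGGT for RUNX (14%), CACCTG for ZEB (17.2%) and TGCTGAC for MAF (3.81%), none had a match in these 2 windows.

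Cebpa was counted at 0, 15.4, 16.7 and 0 CPM in C1q-low cells of mice 14, 15, 2 and 3, from 0, 3, 1 and 0 UMIs. In C1q-high cells it stood at 70.8, 54.4, 81.0 and 105 CPM. All 4 mice moved upward and the ranges did not overlap, the log2 difference being 2.98 ± 0.56 (SE; edgeR adjusted p = 2.18e-06), again against sums of 3 UMIs or fewer. C1q-mid cells, at 89.8, 115, 86.6 and 128 CPM, were above the C1q-high cells in every mouse, yet the difference between them was not past the threshold (−0.49 ± 0.40, edgeR adjusted p = 0.701). Over C1q-low cells the rise was 3.47 ± 0.71 (edgeR adjusted p = 5.08e-05).

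Cebpb went the other way between the outer ranges, with 29.5, 82.4, 117 and 65.0 CPM in the C1q-low and 33.0, 36.3, 30.9 and 36.6 CPM in the C1q-high cells of mice 14, 15, 2 and 3. It was lower in the C1q-high cells of mice 15, 2 and 3 and slightly higher in mouse 14, so that the ranges overlapped. The log2 difference was −1.04 ± 0.38 (edgeR adjusted p = 0.0356). This call was lost without mouse 15 (−0.92, adjusted p = 0.313), without mouse 2 (−0.84, adjusted p = 0.169) and without mouse 3 (−1.08, adjusted p = 0.0735), and with DESeq2 (adjusted p = 0.141), although the value stayed below 0 in each. It was also lost with all deposited cells, C1q limits of 0.2 and 0.8% or no filter on low counts (edgeR adjusted p = 0.12, 0.055 and 0.11). From C1q-low to C1q-mid cells Cebpb did not fall, with means of 73.4 ± 36.3 and 84.4 ± 73.7 CPM (SD, n = 4). That log2 difference was 0.26 ± 0.52 (edgeR adjusted p = 0.895). A gene on the other strand that was also counted, Tmem189, overlaps Cebpb, as Gm45091 does Cebpa.

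Irf8, the interferon regulatory factor that favours monocytes and dendritic cells over granulocytes, lies at chr8:120736358-120756694 on the plus strand. Its level in C1q-low cells was 246, 268, 267 and 195 CPM in mice 14, 15, 2 and 3, and that in C1q-high cells 529, 433, 542 and 478 CPM. Every mouse had more in its C1q-high cells, with no overlap between the ranges, and the log2 difference was 0.99 ± 0.21 (edgeR adjusted p = 3.14e-05). On the scale of this fit C1q-mid cells were in between in each of the 4 mice, at 314, 295, 375 and 342 CPM, and differed past the threshold from neither side. The step from C1q-mid to C1q-high cells became a call with C1q limits of 0.2 and 0.8% (0.90, edgeR adjusted p = 0.0309). It also did without the filter on low counts (0.84, edgeR adjusted p = 0.0371). Irf8 was the only member whose order was C1q-low, C1q-mid, C1q-high within every mouse.

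Runx3, a Runt-domain factor of lymphocytes and tissue phagocytes, lies at chr4:135120652-135177990 on the plus strand, with Gm16224 on the other strand. From 59.0, 72.1, 83.3 and 75.8 CPM in C1q-low cells it went to 135, 99.1, 147 and 162 CPM in C1q-high cells. The ranges of the 4 mice were apart, and the log2 difference was 0.85 ± 0.29 (edgeR adjusted p = 0.0251). It rested on 5 to 14 UMIs a mouse in C1q-low cells and on mice 14 and 3, without which it was 0.75 (adjusted p = 0.126) and 0.77 (adjusted p = 0.124). With every cell thinned to 1000 UMIs it was −0.011 ± 0.46, and with libraries scaled by size alone 0.55 (adjusted p = 0.186).

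The last scaling bears on all values of this comparison: it moved the median log2 change of all genes by −0.29 and turned 617 risen and 415 fallen genes into 437 and 811. Maf, Cebpa, Irf8 and Cebpb kept their direction and call under it. Maf, Cebpa and Irf8 were past the threshold in each of the 15 alternative fits, with log2 changes of 2.49 to 3.23, 2.49 to 4.28 and 0.69 to 1.14. Leaving out the C1q-mid sums, an alternative added after the values were seen, left 5 members called.

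**Figure D2:**
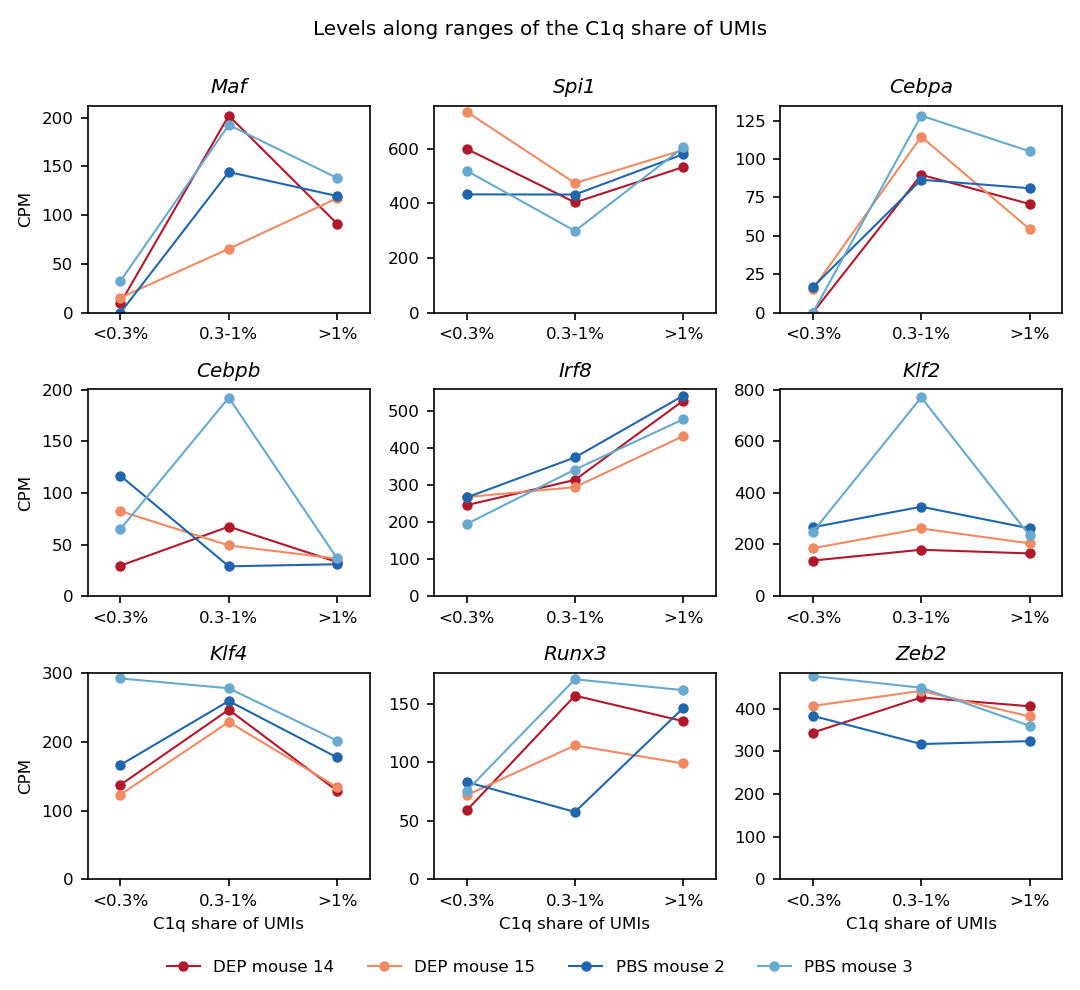
Level of each factor in C1q-low, C1q-mid and C1q-high cells, in CPM, with 1 line a mouse and a panel a gene. Maf and Cebpa start near 0 and stay up from the C1q-mid cells on, Irf8 climbs in every mouse at the scaling shown, and the Klf2 level of the C1q-mid cells of mouse 3 stands far above the rest at 770 CPM.

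Spi1 (chr2:91082390-91115756, plus strand) stood at 600, 736, 433 and 520 CPM in C1q-low cells and at 533, 596, 581 and 606 CPM in C1q-high cells of mice 14, 15, 2 and 3. It was lower in the C1q-high cells of both DEP mice and higher in those of both PBS mice. The log2 difference was 0.00 ± 0.18 (edgeR adjusted p = 0.996). Its C1q-mid values of 404, 475, 433 and 299 CPM were the lowest of the 3 ranges in mice 14, 15 and 3 and level with C1q-low cells in mouse 2, with −0.54 against C1q-low (edgeR adjusted p = 0.213) and 0.54 for C1q-high against C1q-mid (edgeR adjusted p = 0.239). Scaled by library size alone, mouse 2 was highest in C1q-mid cells, at 531 CPM against 482 in C1q-low and 479 in C1q-high cells. Without the filter on low counts the second difference became a call (0.80, edgeR adjusted p = 0.0348). Zeb2 (chr2:44983632-45117395, minus strand), which represses genes of other lineages and has Zeb2os on its other strand, had means of 403 ± 55.6, 409 ± 61.7 and 368 ± 34.8 CPM in C1q-low, C1q-mid and C1q-high cells (SD, n = 4). All 3 ranges overlapped, and no pair of them passed the test, the log2 difference of C1q-high from C1q-low cells being −0.12 ± 0.20.

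Klf2 and Klf4 encode Krüppel-like zinc finger factors that hold monocytes and macrophages back from inflammatory activation, and KLF4 is needed for Ly6c2-positive monocytes. Klf2 (chr8:72319033-72321656, plus strand) stood at 138, 185, 267 and 249 CPM in C1q-low, 180, 262, 346 and 770 CPM in C1q-mid, and 165, 204, 262 and 235 CPM in C1q-high cells. C1q-mid cells were highest in every mouse. Klf2 rose by 0.88 ± 0.28 from C1q-low to C1q-mid cells (edgeR adjusted p = 0.0338) and fell by 0.80 from there to C1q-high cells (SE 0.25, edgeR adjusted p = 0.0379). With Maf and Cebpa it made 3 of 9 members higher in C1q-mid than in C1q-low cells, where 2.85% of all genes were, and it was the single member lower in C1q-high than in C1q-mid cells, where 0.902% of all genes were. Neither call was stable. Mouse 3 weighed most, whose 16 C1q-mid cells held 36 Klf2 UMIs. Without it the differences were 0.44 (adjusted p = 0.693) and −0.31 (adjusted p = 0.842). They were also lost without mouse 15 (0.99, adjusted p = 0.0853; −0.93, adjusted p = 0.0894) and without mouse 2 (0.92, adjusted p = 0.0535; −0.82, adjusted p = 0.0692). With all 4 mice they were lost with C1q limits of 0.2 and 0.8% (0.40 and −0.32), with all deposited cells (0.59 and −0.48), without the filter on low counts (0.74 and −0.54) and without the mouse block (0.94 and −0.84), and the first also with thinned cells (0.87) and with C1q ranges from thinned cells (0.67). The 59 C1q-mid cells had a median mitochondrial share of 2.48 and 1.87% of UMIs in the DEP mice and of 3.98 and 4.68% in the PBS mice, against 1.41 to 2.11% in the other ranges, and its part in these levels was not tested.

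Klf4 (chr4:55527143-55532466, minus strand) was also highest in C1q-mid cells of mice 14, 15 and 2 but not of mouse 3, with means of 180 ± 77.0, 253 ± 20.7 and 161 ± 35.1 CPM in C1q-low, C1q-mid and C1q-high cells (SD, n = 4). No step passed the threshold: the log2 difference was 0.54 ± 0.32 from C1q-low to C1q-mid (edgeR adjusted p = 0.409) and −0.67 ± 0.28 from C1q-mid to C1q-high cells (edgeR adjusted p = 0.241). The second became a call, −0.97, once libraries were scaled by size alone, which moved the median of all genes by −0.30 in that comparison, and so did that of Cebpb, −1.58.

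The share of cells with at least 1 UMI gave the same picture for Maf, at 4.20% of C1q-low (95% exact binomial interval 1.56 to 8.91), 30.5% of C1q-mid and 31.8% of C1q-high cells (28.4 to 35.4). In the 24 set-apart cells with B or plasma cell markers, used here as background, the share was 12.5% (2.66 to 32.4) at a median depth of 5108 UMIs. Cebpa was seen in 2.10%, 28.8% and 21.3% of the cells of the 3 ranges. Its share in the B or plasma cells was 25.0%, 6 of 24 cells, which is not below that of C1q-high cells, and 62.5% of those cells also had a C1qa UMI. With cells thinned to 1000 UMIs the Cebpa share was 5.56% in C1q-high cells and 4.17%, 1 cell, in the B or plasma cells. C1q-low cells of the same wells lay below both unthinned shares, with an interval of 0.435 to 6.01% against 18.3 to 24.5% in C1q-high and 9.77 to 46.7% in B or plasma cells.

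Irf8 was detected in 51.0%, 59.3% and 72.2% of C1q-low, C1q-mid and C1q-high cells and Runx3 in 19.6%, 30.5% and 32.4%. B cells use both genes themselves, and the shares there were 58.3% and 33.3%. Cebpb was detected in 19.6%, 25.4% and 11.8% of the cells and in 0 of the 24 B or plasma cells, which allows a share of up to 14.2% there (exact 95% interval). After every cell was thinned to 1000 UMIs the shares of C1q-low, C1q-mid and C1q-high cells were 1.40, 18.6 and 10.1% for Maf, 0.699, 11.9 and 5.56% for Cebpa, 23.1, 27.1 and 32.0% for Irf8, and 7.69, 11.9 and 3.57% for Cebpb. The order of C1q-low and C1q-high cells was kept for these genes, whereas for Runx3 the thinned shares of 10.5 and 8.13% stood in the opposite order. Spi1 and Zeb2 were found in most cells of each range, at 62.7 to 79.0% and 64.4 to 68.6%, and in 45.8% and 33.3% of the B or plasma cells. Klf2 was found in 38.5, 49.2 and 37.5% of C1q-low, C1q-mid and C1q-high cells. Its share in the B or plasma cells, 54.2%, was above all of these. For Klf4 the shares were 34.3, 42.4 and 36.8%, and 12.5% in the B or plasma cells. Intervals and shares of cells cover counting error only.

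**Figure D3:**
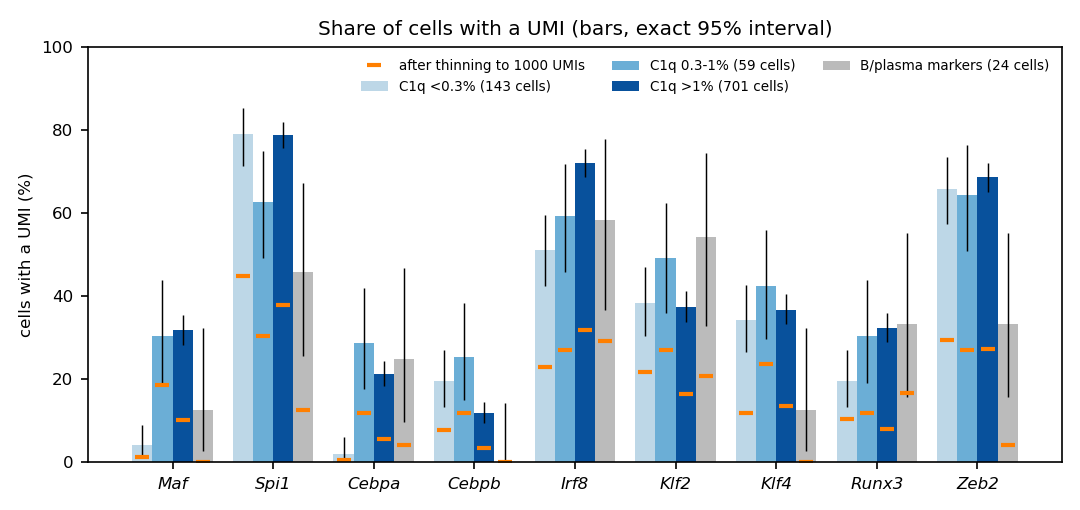
Share of cells with at least 1 UMI of each factor, in percent, in C1q-low, C1q-mid and C1q-high cells and in the cells with B or plasma cell markers, with exact 95% binomial intervals and orange dashes for cells thinned to 1000 UMIs. Maf stands at 4.20% in C1q-low against 31.8% in C1q-high cells, and Cebpa at 2.10% in C1q-low, 21.3% in C1q-high and 25.0% in the B or plasma cells.

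Next, DEP and PBS mice were compared over all kept cells, the question of the exposure. None of the 9 factors passed the test. Klf2, Klf4, Cebpa, Maf and Runx3 were lower in both DEP mice than in both PBS mice, Zeb2 was higher in both, and Spi1, Irf8 and Cebpb overlapped. The 6 members whose groups were apart compare with 37.3% of all 5548 genes tested, and the 0 called with 0.018%, 1 gene, Plac8. The median log2 difference was −0.40 over the members and −0.01 over all genes. Without an adjustment 3 members, Klf4, Klf2 and Cebpa, had a p under 0.05, as had 362 of all genes, and DESeq2 called 0 members. In such sums fewer cells of a type and less RNA per cell cannot be told apart, and the summed monocyte markers stood at 1585 and 1647 CPM in the DEP and at 832 and 972 CPM in the PBS mice.

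Klf2 stood at 146 and 182 CPM in DEP mice 14 and 15 and at 242 and 231 CPM in PBS mice 2 and 3. The log2 difference was −0.52 ± 0.17 (edgeR adjusted p = 0.733). Klf4 was equally low in both DEP mice, with 123 and 122 CPM against 164 and 189 CPM, and a difference of −0.53 ± 0.17 (edgeR adjusted p = 0.733). Cebpa had the widest difference of the 9, −0.63 ± 0.22 (edgeR adjusted p = 0.733), from 56.4 and 45.2 CPM under DEP and 68.0 and 85.2 CPM under PBS. Maf, at 78.3 and 85.5 against 99.0 and 116 CPM, and Runx3, at 114 and 84.6 against 123 and 136 CPM, differed by −0.40 ± 0.19 and −0.41 ± 0.19 (edgeR adjusted p = 0.766 and 0.768). Zeb2 went the other way at 359 and 347 against 299 and 332 CPM, by 0.16 ± 0.15. Spi1, with 481 and 546 against 505 and 516 CPM, differed by 0.01 ± 0.14.

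**Figure D4:**
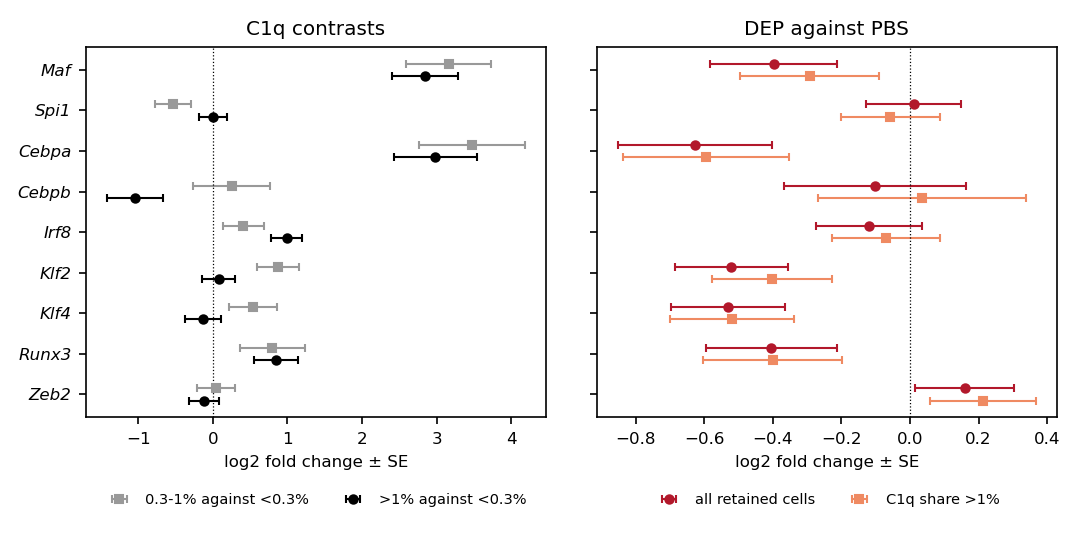
Log2 difference of each factor with bars of 1 standard error: left, C1q-mid (grey squares) and C1q-high cells (black circles) against C1q-low cells; right, DEP against PBS mice over all kept cells (red circles) and in C1q-high cells (orange squares), on a narrower axis. Maf and Cebpa stand near 3 on the left in both comparisons, and on the right Maf, Cebpa, Klf2, Klf4 and Runx3 lie below 0 by more than 1 standard error, none past the adjusted threshold.

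Since the share of C1q-low cells was higher in both DEP mice, the comparison was repeated within each range. Among C1q-high cells 6 members were apart between the groups, against 34.6% of all 5731 genes tested, and 0 members and 0% of the genes passed the adjusted threshold. Before adjustment 3 members and 302 genes had a p under 0.05. The members were those that were apart over all cells, and in the same directions. On the scale of this fit Klf4 stood at 112 and 116 CPM in DEP and 152 and 173 CPM in PBS mice, a log2 difference of −0.52 ± 0.18, and Cebpa at 61.5 and 47.0 against 69.5 and 90.1 CPM, one of −0.60 ± 0.24. Klf2 differed by −0.40 ± 0.18, Runx3 by −0.40 ± 0.20, Maf by −0.29 ± 0.20 and Zeb2 by 0.21 ± 0.15, each with an edgeR adjusted p of at least 0.914. DESeq2 called 0 members there too.

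Among C1q-low cells 7 members could be tested, Maf and Cebpa having too few UMIs. None was called, where 0.581% of 4472 genes were, and 1 member, Klf4, had an unadjusted p under 0.05, as had 285 of all genes. The groups were apart for 4 members, where 36.8% of all genes were. Klf4 stood at 148 and 132 CPM in DEP and 187 and 308 CPM in PBS mice, a log2 difference of −0.89 ± 0.40. Klf2, at 148 and 199 against 298 and 263 CPM, differed by −0.64 ± 0.38. Spi1 was higher in both DEP mice, at 644 and 789 against 485 and 548 CPM, by 0.47 ± 0.27.

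In the 59 C1q-mid cells 0 of 9 members and 0.449% of 5125 genes were called, and 4 members were apart, against 37.6% of all genes. Klf2 differed most, with 187 and 300 CPM in DEP and 394 and 761 CPM in PBS mice (−1.26 ± 0.44, edgeR adjusted p = 0.284). It was the 1 member with an unadjusted p under 0.05, where 338 of all genes had one. Without mouse 2 it became a call, at −1.75 (edgeR adjusted p = 0.0320). The C1q-mid cells of the groups were unlike in monocyte markers, which summed to 6388 and 2137 CPM in DEP and 1134 and 1028 CPM in PBS mice, with 2 of 6 tested, Ly6c2 and Plac8, higher under DEP (edgeR adjusted p = 1.80e-06 and 6.28e-06). Their part in the Klf2 level was not tested. Irf8 and Klf4 were lower in both DEP mice and Zeb2 higher, each by less than its SE. Whether the DEP difference itself changed between C1q-low and C1q-high cells was tested for the 7 members with more than 3 UMIs in some C1q-low sum: 0 passed (edgeR adjusted p = 1 for each), where 0.18% of genes did. At an unadjusted p under 0.05 there were 0 members and 243 of all genes. The widest, for Spi1, was −0.55 ± 0.32. DESeq2 called 0 members in each of these comparisons.

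Relatives of the 9 factors in the same families were then read along the ruler. Of 27 listed, 19 could be tested between C1q-low and C1q-high cells, 3 rose, 4 fell, and their median log2 change was 0.17. Klf6 rose by 0.71 ± 0.16 and Klf7 by 1.71 ± 0.62, the latter lost without mouse 14, 15 or 2. Irf7, the interferon-induced regulator, fell by 1.94 (SE 0.28) from 226, 190, 133 and 108 CPM to 75.5, 42.3, 36.7 and 20.1 CPM, which is the opposite course to that of Irf8, and Klf13 fell by 1.30, Irf5 by 0.83 and Klf10 by 0.69, the last lost without mouse 14, 2 or 3.

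Other transcription factors of macrophages numbered 36 in the list, of which 28 could be tested. Between C1q-low and C1q-high cells 5 rose and 6 fell, and the median log2 change was 0.55. Mef2c (1.57 ± 0.30), Id2 (1.06 ± 0.20) and Nfe2l2 (0.85 ± 0.21) rose. Hes1, a Notch target, rose by 1.08 ± 0.40, lost without mouse 15, 2 or 3, and Bhlhe41 had 0 UMIs in all C1q-low sums and 8 to 17 in the C1q-high sums, a call lost without mouse 15. The immediate early receptor Nr4a1, which Ly6c2-negative monocytes need, fell by 1.46 (SE 0.19) and Bhlhe40 by 1.33.

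Of 10 genes that the 9 factors are known to drive, 8 could be tested, 3 rose and 1 fell, with a median log2 change of 0.67. Csf1r, the growth factor receptor that PU.1 controls, rose by 1.09 ± 0.19, Fcgr1, which encodes Cd64 and so was part of the sorting gate, by 0.85 ± 0.24, and Il10, a target of c-Maf, by 1.65 ± 0.38, while Lyz2 fell. Among 18 genes of dissociation stress and immediate early response, to which Klf2 and Klf4 are often added, 6 rose and 0 fell between C1q-low and C1q-high cells, led by Fosb (1.33 ± 0.20) and Dnajb1 (1.32 ± 0.21), with a median of 0.19. From C1q-low to C1q-mid cells, where Klf2 rose, Jund, Ier5 and Fosb rose and Hspa1a and Hspa8 fell. Their part in the Klf2 level was not tested.

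Between DEP and PBS mice 0 relatives, 0 other factors and 0 targets were called over all cells, 3, 1 and 2 of them had a p under 0.05 before adjustment, and DESeq2 called 1 gene in all. Within the ranges 1 of 14 tested relatives was lower under DEP in C1q-low and 1 of 19 in C1q-mid cells. Of all genes 0.581 and 0.449% were called there. Of 18 immediate early genes 1, Jund, was lower in C1q-mid cells (−1.51 ± 0.40, edgeR adjusted p = 0.0402). None of these calls held in every alternative fit. Id2, a partner of E proteins used by dendritic cells and innate lymphoid cells, was higher under DEP in C1q-low cells, at 391 and 502 against 112 and 160 CPM (1.68 ± 0.37, edgeR adjusted p = 0.00606), a call lost without mouse 15, 2 or 3. In those cells the summed NK and innate lymphoid markers stood at 70.1 to 114 CPM in DEP and 18.5 to 21.9 CPM in PBS mice, and the dendritic cell markers at 120 to 337 and 0 to 197 CPM. Their part in the Id2 level was not tested.

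Finally, the levels of the members were set beside one another over the 12 sums, which share mice, C1q ranges and depths and so give descriptions only. Maf and Cebpa went most closely together (Pearson r = 0.77), followed by Irf8 and Cebpa (0.72) and by Runx3 and Cebpa (0.70), while Spi1 ran against Klf2 (−0.73) and Klf4 (−0.69). In single cells a Maf and a Cebpa UMI were seen together in 53 of 701 C1q-high cells and in 0 of 143 C1q-low cells. The genes whose levels were most like that of Maf were Ptms (0.96) and Pdgfa (0.95), those most like Cebpa were Mmp14 (0.97) and Pf4 (0.92), and those most like Irf8 were Tmem176b (0.95) and Tmem119 (0.94). For Spi1 they were Prmt1 and Smu1 (0.94 and 0.92), for Runx3 Syce2 and Itgam (0.91 and 0.90), and for Klf2 Fam49b and Map7d1 (0.91 and 0.88). For Cebpb they were Tma7 and Rab8a (0.85 and 0.83), and the genes most like Klf4 and Zeb2 reached 0.83 and 0.79.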

How the data were processed

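The authors processed the reads with Cell Ranger and STAR 2.6.1a on mm10, merged the 4 wells without downsampling and deposited UMI counts of genes by cells (at least 1000 UMIs a cell, per the file and the study's methods), which were used as whole counts. The study's methods describe an in silico search for doublets that flagged no cells, and no such search was made here. The study also left out cells not annotated as monocytes or macrophages. Its tests by cluster ignored a cluster that it held to be most likely damaged or low-quality cells. Neither of these 2 exclusions was repeated here. Each cell's suffix gave its mouse. Cells with at least 3 markers of a non-myeloid type were set apart. Counts were summed per mouse, and per mouse and C1q range, and tested with edgeR 4.0.16 in R 4.3.3 (trimmed mean scaling, quasi-likelihood F test, Benjamini-Hochberg adjustment at 0.05), over genes with more than 1 CPM in at least 2 sums and a UMI in at least 5% of cells. SE is the log2 fold change divided by the root of F. CPM values of single genes are scaled by trimmed mean factors within each comparison, from 0.849 to 1.27 along the ruler. Summed marker lists are scaled by library size alone. DESeq2 1.42.0, other filters and limits, thinning to 1000 UMIs and leaving out mice were the alternatives. Shares used exact tests and intervals (scipy 1.17.1). Some of the fits were run on simulated counts with planted changes. These counts had a dispersion shared by all genes and no other differences between mice or C1q ranges than library size, unlike the data. In the comparison of DEP effects between C1q ranges, and along the ruler, sums of 1 mouse are not independent. P-values of DEP against PBS, over all cells or within a C1q range, measure the spread between 2 mice a group. Those of the fits with the mouse as a block measure the spread of the 12 sums that is left within mice.

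Named genes were the 9 members, up to 5 risen and 5 fallen genes of each list, and the 2 genes most like each member. The members and lists were chosen with earlier results of these data known. Maf and Spi1 had no promoter entry, and 7 members had one. No other column of values was left unused. Some genes of the lists are counted but not reported here by name.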

Additional observations from a re-analysis of the deposited data

Results flagged for a closer look

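Members were also counted in cells that were left out of the tests between groups and C1q ranges, apart from the alternative with all deposited cells. The 40 cells set apart for markers of other types held 46 UMIs of Spi1, 51 of Irf8, 28 of Klf2, 26 of Zeb2, 19 of Runx3, 13 of Klf4, 12 of Maf and 8 of Cebpa, each above the 3 that a count of 0 allows, and 0 of Cebpb. Of these cells 24 had B or plasma cell markers.

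The difference between DEP and PBS mice in Id2 itself differed between C1q-high and C1q-low cells, by −1.75 ± 0.40 on the log2 scale (edgeR's quasi-likelihood test, adjusted p = 0.0116). It was not past the threshold without mouse 14, 15 or 2, with DESeq2, or with cells thinned to 1000 UMIs (adjusted p = 0.52), and Id2 was no member of the 9.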

How the results depend on the processing

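Of 896 values of single members under an alternative, 795 kept their direction and their side of the threshold, 27 were no longer past it, 6 were newly past it, 67 changed sign without passing it in either fit, and 1, Runx3 between C1q-low and C1q-high cells thinned to 1000 UMIs (−0.011), changed sign after passing; where no value bears on it, the cause was not tested. DEP and PBS mice were different animals and could not be paired, whereas the C1q ranges were compared within mice. Of 9 members, 5 were called between C1q-low and C1q-high cells, and 3 with DESeq2 or thinned cells and 3 to 4 with a mouse left out. Cebpb had a UMI in 4.76% of the thinned cells, under the filter of 5%, and was not tested in that fit. The 1 called between C1q-mid and C1q-high cells became 0 with all deposited cells or without the mouse block, 3 with library size only, 2 without the filter and 0 to 1 with a mouse left out. The 0 called between DEP and PBS mice in C1q-mid cells became 0 to 1 with a mouse left out.

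Counts of all genes moved more. From C1q-low to C1q-high cells 1032 were called, 421 with thinned cells and 651 to 931 with a mouse left out. From C1q-low to C1q-mid cells there were 332, 148 with thinned cells and 172 to 335 with a mouse left out. From C1q-mid to C1q-high cells there were 177, 100 with DESeq2, 112 with the 10% filter, 289 with limits of 0.2 and 0.8%, 81 with C1q ranges from thinned cells, 104 with thinned cells, 109 without the mouse block and 98 to 165 with a mouse left out. For DEP against PBS over all cells, the count of 1 became 0 with thinned cells, 44 without the filter and 0 to 16 with a mouse left out. In C1q-low cells the 26 became 0 with DESeq2, 14 with the 10% filter, 9 with all deposited cells, 5 with the other limits, 9 with ranges from thinned cells, 1 with thinned cells and 11 to 25 with a mouse left out. In C1q-mid cells the 23 became 0 with DESeq2, the other limits or thinned cells, 8 with the 10% filter, 9 with ranges from thinned cells and 6 to 22 with a mouse left out. In C1q-high cells the 0 became 1 with ranges from thinned cells, 2 with library size only, 16 without the filter and 3 to 41 with a mouse left out. The 10 genes whose DEP difference changed between ranges became 0 with DESeq2 or thinned cells, 18 with all deposited cells, 4 with ranges from thinned cells and 4 to 10 with a mouse left out. The C1q-mid share of cells, 0.484 points higher in DEP mice, was −0.336 points with all deposited cells and −0.0428 with the other limits. Where a mouse is left out its group holds 1 mouse, assumed to vary like the other.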
